A study of Mus musculus with 12 samples.

Results

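Olfactory receptors are G protein-coupled receptors that bind odorants on the cilia of olfactory sensory neurons in the nasal lining. Each mature neuron is known to express a single receptor gene from a very large family, so that bulk tissue holding many such neurons contains many receptors, each at a low level. Binding activates the olfactory G protein subunit encoded by Gnal, adenylyl cyclase encoded by Adcy3 and the cyclic nucleotide-gated channel whose main subunit is Cnga2. A small number of receptors are also known outside the nose, among them Olfr78 and Olfr558 in vascular smooth muscle.

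The set described here is the 54 olfactory receptor genes with at least 50 counts over 12 RNA sequencing libraries of newborn mouse skull. They were taken from the 1123 rows of the deposited table whose names begin with Olfr, among 23358 genes in all. Of those 1123 rows, 471 had no count in any library and 598 had a sum above 0 and below 50. The members were chosen by their summed counts, so the levels that brought a gene into the set are given as a description. The members just inside the limit were Olfr513 with 54 counts, Olfr455 with 52 and Olfr292 with 50. The rows just outside were Olfr1206 with 48 counts and Olfr1214 and Olfr192 with 44 each. The names of 3 members mark them as pseudogenes, Olfr856-ps1, Olfr1372-ps1 and Olfr329-ps.

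The tissue was frontal bone taken with the nasal bone and the adjoining coronal and frontonasal sutures, at postnatal day 3. C57BL/6 mice were wild type (replicates 1, 2 and 3) or carried FGFR2C342Y/+, a heterozygous Fgfr2 mutation that models Crouzon syndrome (replicates 4, 5 and 6). BALB/c mice were wild type (replicates 13, 14 and 15) or carried the same heterozygous mutation (replicates 16, 17 and 18). The labels gave neither sex nor whether a library came from 1 animal or several, so the p-values below measure the spread between these libraries. The sample descriptions carry different run identifiers for the C57BL/6 and the BALB/c libraries, and strain and sequencing run therefore cannot be told apart.

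Libraries held 27181658 to 46521546 counts in genes. Summed osteoblast markers (Runx2, Sp7, Bglap, Alpl, Col1a1 and Ibsp) ran from 61127.7 to 140247.5 CPM (counts scaled to library size) over the 12 libraries. Each marker had counts in every library, so bone tissue was present in each. The sum was mostly Col1a1, with 58980.9 CPM of the lowest sum, that of C57BL/6 wild type replicate 1. Bglap (163.6 CPM) and Alpl (406.3 CPM) were also lowest in that library, and Runx2 was not. All deposited counts were even, as would follow from counting each read of a pair, so the smallest count above 0 was 2. In bulk tissue, fewer cells of a type and less RNA per cell cannot be told apart. One library stood apart from its group: in the number of receptors detected, C57BL/6 mutant replicate 4 lay with the C57BL/6 wild type libraries and replicates 5 and 6 did not.

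The family is recognised by short stretches of shared sequence, of which the best known surrounds an aspartate, an arginine and usually a tyrosine at the end of the third membrane-spanning segment. A stretch with this pattern (alanine, any residue, aspartate, arginine, then tyrosine, phenylalanine, histidine or cysteine) was found in the reading frame of 42 of 53 members with a GENCODE transcript of GRCm38, or 79.2%, against 78.5% of 1105 Olfr rows. Of the 53, 52 had an open reading frame of at least 300 codons. Olfr613 and Olfr1372-ps1 had no such stretch. Its coding sequence is shown for 8 members with values given one by one, with the 3 codons for the aspartate, the arginine and the residue after them in capitals.
Olfr856-ps1: atggcgtatGACCGGTTTgtggccatatgt
Olfr536: atggcctatGACCGCTACcttgcaatctgt
Olfr1033: atggcttttGACAGGTACatggcaattgga
Olfr1507: atggcctatGATCGCTATgtggccatttgt
Olfr558: atggcctttGACCGCTATgtggccatttgc
Olfr920: atggcctatGATCGTTATgtggctatctgc
Olfr56: atggcttatGATCGCTATgtggccattagc
Olfr78: atggcctttGACCGGTACgtggctatctgc

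In these 8 stretches the aspartate codon was GAC or GAT, and the codon after the arginine encoded tyrosine in every gene shown but Olfr856-ps1, where it was TTT, a phenylalanine codon. Shared sequence bears on the counts, since a read that fits several receptors may be counted for the wrong gene or lost. The share of a member's 50-base words also found in other genes was 4.62% for Olfr613, 3.20% for Olfr536, 5.85% for Olfr1033, 6.09% for Olfr1507, 1.74% for Olfr558 and 2.67% for Olfr920. For Olfr856-ps1 and Olfr543 it was 0. It was higher for some less abundant members, with 72.4% for Olfr288, 33.7% for Olfr287, 24.99% for Olfr1347 and 14.7% for Olfr224. It was 14.2% for Olfr78, whose gene model overlaps Olfr560, a row with 0 counts in all 12 libraries. Olfr56 has a model that overlaps Ifi47, Tgtp2 and Olfr1396, and how reads were divided among these rows is not stated.

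The number of receptors differed widely between libraries, as the grid of counts by gene and library shows. All 54 members had counts in each of the C57BL/6 wild type libraries and in C57BL/6 mutant replicate 4. In C57BL/6 mutant replicates 5 and 6 the number fell to 10 and 13. BALB/c wild type replicates 13, 14 and 15 had counts for 11, 10 and 8 members, and BALB/c mutant replicates 16, 17 and 18 for 9, 9 and 8. The libraries thus lay in 2 ranges that did not overlap, with 4 libraries at 54 and 8 at 13 or below.

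**Figure D1:**
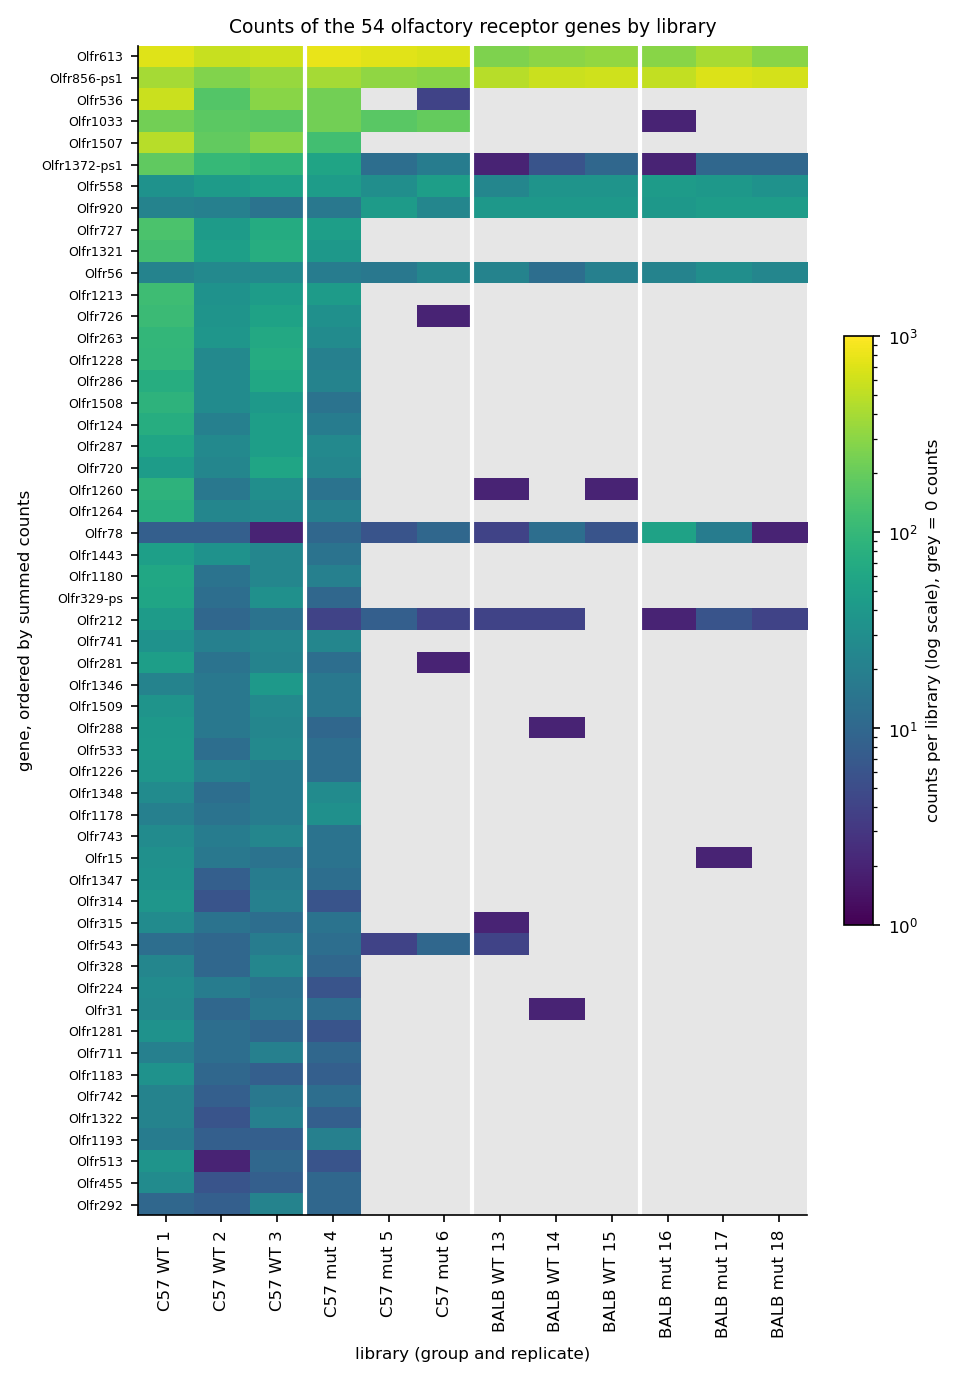
Counts of each of the 54 receptor genes (vertical axis, ordered by summed counts) in each of the 12 libraries (horizontal axis), on a log colour scale with 0 in grey; white lines part the 4 groups, and "mut" stands for the mutant group. All rows are coloured in the 3 C57BL/6 wild type libraries and mutant replicate 4, and 36 rows are grey in all of the remaining 8 libraries.

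A limit of 10 counts per library gave the same split into 4 high and 8 low libraries. It was reached by 53, 45 and 50 members in C57BL/6 wild type replicates 1, 2 and 3, and by 47 in mutant replicate 4. In mutant replicates 5 and 6 it was reached by 7 and 9 members, and in the BALB/c libraries by 5 to 7. Over all 1123 rows, 416, 311 and 306 receptors had a count in the C57BL/6 wild type libraries and 304 in mutant replicate 4. That number was 23 and 33 in mutant replicates 5 and 6, and 16 to 23 in the 6 BALB/c libraries. The split into 4 high and 8 low libraries remained at equal depth. Scaled to the smallest library total, the 3 wild type C57BL/6 libraries were expected to show 386.1, 284.5 and 266.4 rows, mutant replicate 4 231.4 rows, and the other 8 libraries 14.3 to 25.7 rows. At that depth 52.1, 40.4 and 46.2 members were expected to reach 10 counts in the wild type libraries and 28.9 in mutant replicate 4, against 5 to 7.09 in the other 8.

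Which low receptors were seen varied from library to library. In C57BL/6 wild type, 585 rows had a count in at least 1 library, 160 in all 3 and 297 in exactly 1. Of the 304 rows seen in mutant replicate 4, 254 were also seen in a C57BL/6 wild type library. In BALB/c, 61 rows were seen in at least 1 of the 6 libraries and 7 in all 6.

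**Figure D2:**
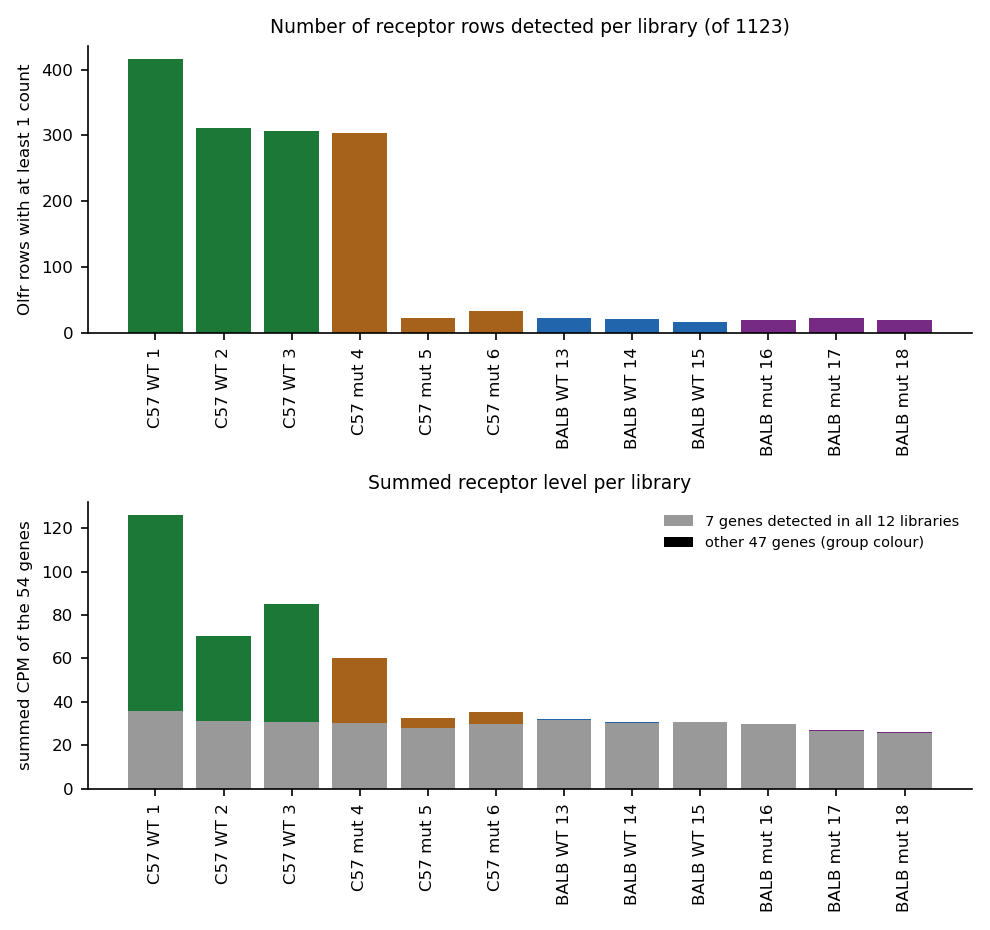
Bars give, per library, the number of the 1123 Olfr rows with at least 1 count (upper panel) and the summed CPM of the 54 receptor genes (lower panel, grey for the 7 genes detected in all libraries and coloured by group for the other 47). Mutant replicate 4 has 304 detected rows against 23 and 33 in the other C57BL/6 mutant libraries, while the grey part stays between 25.8 and 36.0 CPM in all 12.

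The summed level of the 54 genes averaged 93.8 CPM ± 28.8 (SD, n = 3) over the wild types and 42.8 CPM ± 15.3 (SD, n = 3) over the mutants of C57BL/6. For BALB/c it averaged 31.1 CPM ± 0.696 (SD, n = 3) over the wild types and 27.5 CPM ± 1.99 (SD, n = 3) over the mutants. The sums differed mainly through 47 of the 54 genes. The 7 genes detected in all 12 libraries gave 30.7 to 36.0 CPM in C57BL/6 wild type, 28.1 to 30.2 CPM in C57BL/6 mutant and 25.8 to 31.4 CPM in BALB/c libraries. The other 47 gave 89.99, 39.4 and 54.4 CPM in C57BL/6 wild type replicates 1, 2 and 3 and 30.1 CPM in mutant replicate 4. They gave 4.46 and 5.93 CPM in mutant replicates 5 and 6, where Olfr1033 held 172 of 184 and 198 of 220 of their counts, and 0.0586 to 0.451 CPM in BALB/c.

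Counts were spread over many receptors in some libraries and over few in others. The inverse Simpson number, which is the number of equally abundant genes that would give the observed evenness, was 16, 10.7 and 13.3 in C57BL/6 wild type libraries over the 54 genes and 7.64 in mutant replicate 4. In mutant replicates 5 and 6 it was 2.69 and 2.94, and in the BALB/c libraries 2.22 to 2.62. Olfr613 led in each of the 6 C57BL/6 libraries by counts, with 14.7% to 29.8% of the members' counts in the wild type libraries and mutant replicate 4 and 51.4% and 54.4% in the other mutants. Olfr856-ps1 led in each BALB/c library, with 53.4% to 60.8%.

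**Figure D3:**
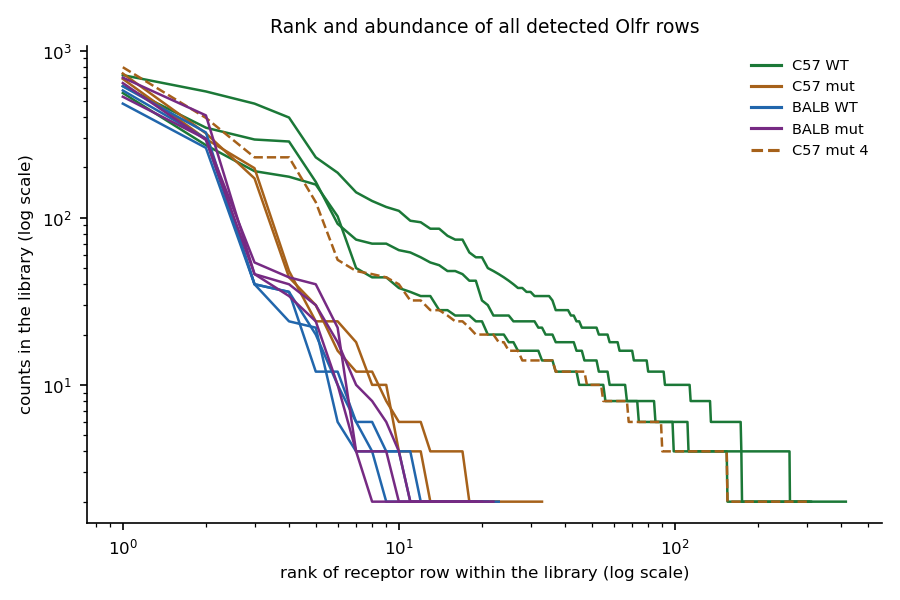
Counts of each detected Olfr row (vertical axis, log scale) against its rank within the library (horizontal axis, log scale), 1 line per library coloured by group, with C57BL/6 mutant replicate 4 dashed. The 3 C57BL/6 wild type lines and the dashed line run out to between 304 and 416 receptors, and the other 8 lines end at 33 or fewer.

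The 7 genes found in every library were Olfr613, Olfr856-ps1, Olfr1372-ps1, Olfr558, Olfr920, Olfr56 and Olfr78. Olfr613 (chromosome 7, 103550368 to 103555504) lies among the class I receptors that flank the beta-globin genes, 257 kb from the nearest Hbb row. It had 714, 558 and 614 counts in C57BL/6 wild type, 796, 730 and 678 in C57BL/6 mutant, 262, 298 and 324 in BALB/c wild type and 296, 410 and 292 in BALB/c mutant libraries. In CPM the C57BL/6 and BALB/c ranges did not overlap, and replicate 4 lay with the other C57BL/6 mutants. The level was lower in BALB/c by 0.86 on the log2 scale in wild type (log2 -0.86, SE 0.0928, adjusted p 3.35e-05, edgeR) and by 1.12 among mutants (log2 -1.12, SE 0.0926, adjusted p 5.48e-06, edgeR). The 4 receptor rows nearest to it, Olfr611, Olfr612, Olfr615 and Olfr616, had 0 to 2 counts over all libraries.

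Olfr856-ps1 (chromosome 9, 19657039 to 19658680) moved the other way. Its counts were 398, 272 and 346 in C57BL/6 wild type, 396, 320 and 296 in C57BL/6 mutant, 482, 578 and 612 in BALB/c wild type and 530, 690 and 640 in BALB/c mutant libraries. In wild type mice it averaged 9.27 CPM ± 1.08 (SD, n = 3) on C57BL/6 and 17.96 CPM ± 0.133 (SD, n = 3) on BALB/c, with no overlap. The difference was log2 0.95 in wild type (SE 0.0950, adjusted p 2.10e-05, edgeR) and log2 0.91 in mutants (SE 0.0948, adjusted p 2.65e-05, edgeR). Per length it was the highest member in each group, at 4.72 RPKM ± 0.769 (SD, n = 3) for C57BL/6 wild types and 9.46 RPKM ± 0.0739 (SD, n = 3) for those of BALB/c, where RPKM is reads per kilobase of gene model, scaled to library size. In C57BL/6 wild type the next in that order, Olfr1507 at 4.35 RPKM ± 2.00 (SD, n = 3), did not differ from it beyond the spread.

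Olfr920 (chromosome 9, 38752796 to 38756863) was also higher in BALB/c among wild types. It had 22, 20 and 14 counts in C57BL/6 wild type, 16, 44 and 24 in C57BL/6 mutant and 40 in each BALB/c wild type library, and 40, 46 and 46 in BALB/c mutants. The wild type groups did not overlap in CPM (log2 1.33, SE 0.382, adjusted p 0.0131, edgeR), and the call was lost without C57BL/6 wild type replicate 3 (adjusted p 0.0500, edgeR). Among mutants the ranges overlapped, and the difference of log2 0.68 (SE 0.371, adjusted p 0.173, edgeR) did not pass.

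Olfr558 (chromosome 7, 102702323 to 102712054), a receptor known from vascular smooth muscle, had 24 to 52 counts in every library. Its group means were 1.201 CPM ± 0.277, 1.02 CPM ± 0.283, 1.02 CPM ± 0.109 and 1.01 CPM ± 0.272 (SD, n = 3 each) in C57BL/6 wild type, C57BL/6 mutant, BALB/c wild type and BALB/c mutant libraries. The ranges overlapped in all 4 pairwise contrasts, and none passed. Olfr56 (chromosome 11, 49050733 to 49135387), with 12 to 30 counts per library, passed in none of them either.

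Olfr78 (chromosome 7, 102740721 to 102759471), a receptor for short-chain fatty acids and lactate that is known from blood vessels and the carotid body, had 2 to 18 counts in 11 libraries and 54 in BALB/c mutant replicate 16. That library also held the highest summed vascular smooth muscle markers (Acta2, Myh11 and Tagln), 334.3 CPM against 148.0 to 248.0 CPM elsewhere. It likewise held the highest summed skeletal muscle markers, 342.2 CPM against 1.21 to 56.7 CPM, and the highest Schwann and ensheathing glia markers, 430.3 CPM against 32.9 to 100.2 CPM. Their part in the Olfr78 level was not tested. Olfr78 passed in none of the contrasts.

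**Figure D4:**
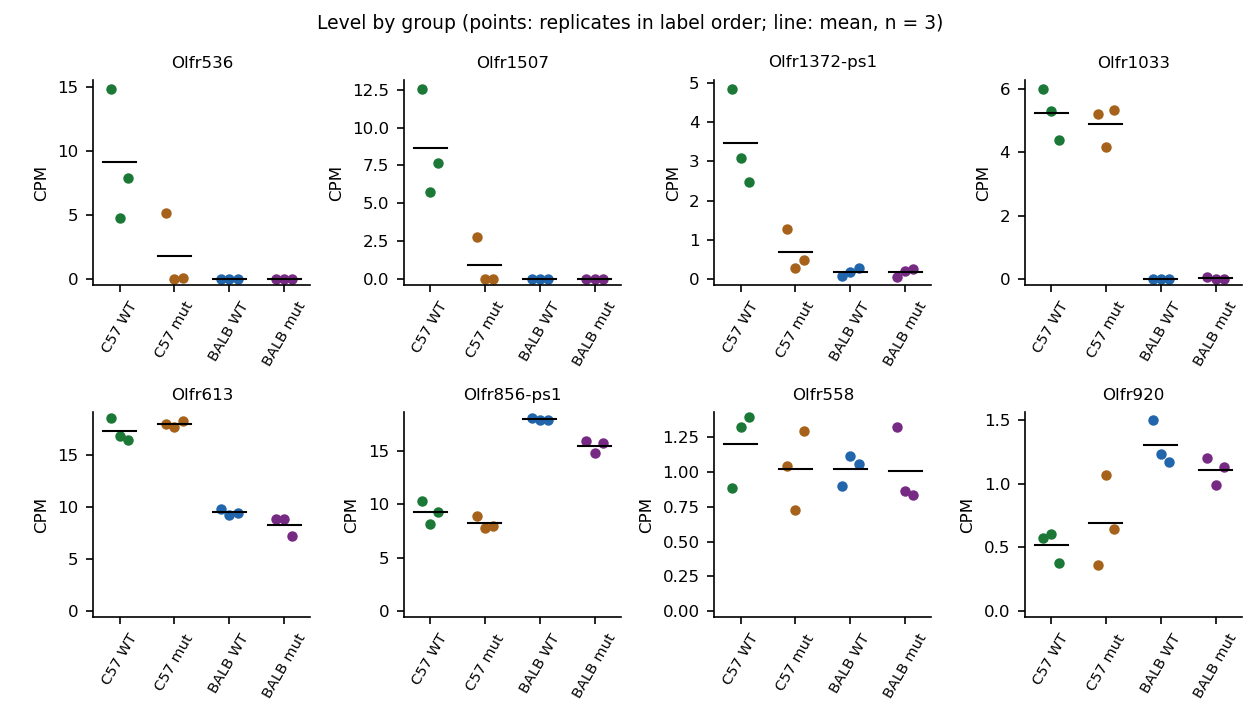
CPM of 8 receptor genes in each library (points) with the group mean (line), 3 replicates a group in label order; "mut" stands for the mutant group. Olfr536 and Olfr1507 are high in C57BL/6 wild type and in 1 mutant library, Olfr1033 is at 4.17 to 5.98 CPM in every C57BL/6 library and at or near 0 in BALB/c, and Olfr613, Olfr856-ps1, Olfr558 and Olfr920 are present in all groups.

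Olfr1372-ps1 (chromosome 11, 52154876 to 52157907) was found everywhere but at uneven levels. Its counts were 186, 102 and 92 in C57BL/6 wild type, 56, 12 and 18 in C57BL/6 mutant, 2, 6 and 10 in BALB/c wild type and 2, 10 and 10 in BALB/c mutant libraries. It was lower in C57BL/6 mutants than in wild type with no overlap (log2 -2.33, SE 0.561, adjusted p 0.0132, edgeR), and lower in BALB/c than in C57BL/6 in wild type (log2 -4.17, SE 0.648, adjusted p 3.73e-04, edgeR) and in mutants (log2 -1.92, SE 0.630, adjusted p 0.0318, edgeR). The genotype call was lost without wild type replicate 1 (adjusted p 0.0568, edgeR) or without mutant replicate 6 (adjusted p 0.0573, edgeR). The strain call among mutants was lost without C57BL/6 mutant replicate 4 (log2 -1.09, adjusted p 0.176, edgeR), BALB/c mutant replicate 16 (adjusted p 0.103, edgeR) or BALB/c mutant replicate 17 (adjusted p 0.0655, edgeR).

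Most of the other 47 genes were concentrated in the 4 libraries that showed all 54. Of the 54 members, 36 had no count in any of the other 8 libraries, and 43 had at most 2 counts in each of those 8. In BALB/c, 39 members had no count in any library. For members at 0 a floor of 3 counts was used, worth 0.0646 to 0.113 CPM in the deepest and the shallowest library. Counts came in steps of 2, so this floor is less than 3 read pairs. A count of 0 therefore allows a level above the floor, for counting error alone.

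Olfr536 (chromosome 7, 140500853 to 140507318) and Olfr1507 (chromosome 14, 52489935 to 52495695) were the highest by counts of the 47 without Olfr1033, which is described on its own. Olfr1507 encodes the receptor long studied as MOR28, a model for how a neuron chooses its receptor gene. Olfr536 had 570, 158 and 294 counts in C57BL/6 wild type and 230, 0 and 4 in C57BL/6 mutant libraries, and Olfr1507 had 482, 190 and 286 counts in wild type and 124, 0 and 0 in mutant libraries. Neither had a count in BALB/c. Set against the floor of 3 counts per library, the BALB/c level in wild type mice was lower by 93.6-fold for Olfr536 and by 88.4-fold for Olfr1507. These folds are not lower bounds, since a count of 0 allows a level above that floor.

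Olfr727 had 142, 44 and 70 counts in C57BL/6 wild type and 48 in mutant replicate 4, and Olfr1321 had 126, 50 and 74, and 40. Both were at 0 in the other 8 libraries. The members with the largest share of their counts in mutant replicate 4 were Olfr1178 (38.1%), Olfr1193 (37.0%) and Olfr1348 (32.6%). Olfr1178 had 20, 14 and 18 counts in C57BL/6 wild type and 32 in that library. Olfr1193 had 18, 8 and 8, and 20, and Olfr1348 had 28, 12 and 18, and 28. These 3 were also at 0 in the other 8 libraries. C57BL/6 wild type replicate 1 was the high library of its group, with the highest CPM for 41 of the 47 genes, and replicate 3 was highest for the remaining 6. The spread between those 3 libraries was larger for these genes than for the 7 found in all libraries, with a median coefficient of variation of 45.2% over the 47 against 23.1% over the 7.

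The proportions of the 47 genes among each other were compared in the 4 libraries. Counted as read pairs, Olfr536 made up 16.5% (95% exact binomial interval 14.7% to 18.3%) of the 47 genes' pairs in wild type replicate 1, 12.1% (9.67% to 14.8%) in replicate 2, 14.5% (12.4% to 16.8%) in replicate 3 and 17.2% (14.4% to 20.3%) in mutant replicate 4. Olfr1507 made up 13.9% (12.3% to 15.6%), 14.5% (11.9% to 17.4%), 14.1% (12.01% to 16.4%) and 9.30% (7.20% to 11.8%) in the same order. With Olfr1033 left out of the total, Olfr1507 made up 14.9% (13.2% to 16.7%), 16.8% (13.8% to 20.1%), 15.3% (13.1% to 17.8%) and 11.2% (8.72% to 14.2%), and these intervals overlapped. On that total Olfr536 made up 17.6% (15.8% to 19.6%), 13.9% (11.2% to 17.1%), 15.8% (13.5% to 18.25%) and 20.8% (17.5% to 24.5%). Its intervals in wild type replicate 2 and mutant replicate 4 did not overlap. Olfr1033, also 1 of the 47, varied most of the 3, at 6.64% (5.51% to 7.92%), 13.4% (10.9% to 16.3%), 8.08% (6.48% to 9.93%) and 17.2% (14.4% to 20.3%). Read pairs without molecular identifiers are not independent molecules, so these intervals cover counting error only. Across the 54 genes, Spearman's rho of CPM was 0.737 to 0.825 between pairs of wild type libraries and 0.579 to 0.817 between those and mutant replicate 4, and across the 47 it was 0.758 to 0.799 and 0.552 to 0.766, as a description over genes that share each library's depth and tissue content.

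The summed counts of the 46 genes without Olfr1033 went with those of Omp, the gene of olfactory marker protein, which defines mature olfactory sensory neurons. Omp had 3848, 1620 and 2182 counts in C57BL/6 wild type replicates 1, 2 and 3 and 1598 in mutant replicate 4, against 20 and 26 in mutant replicates 5 and 6 and 10 to 24 in BALB/c. The 46 genes together had 3234, 1134 and 1866 counts in the wild type libraries and 1104 in mutant replicate 4, against 12 and 22 in the other mutants and 2 to 12 in BALB/c. The receptor counts per Omp count were 0.840, 0.700, 0.855 and 0.691 in the 4 high libraries. In the 8 low libraries, where each count was small, the ratio ran from 0.0833 to 1.2.

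**Figure D5:**
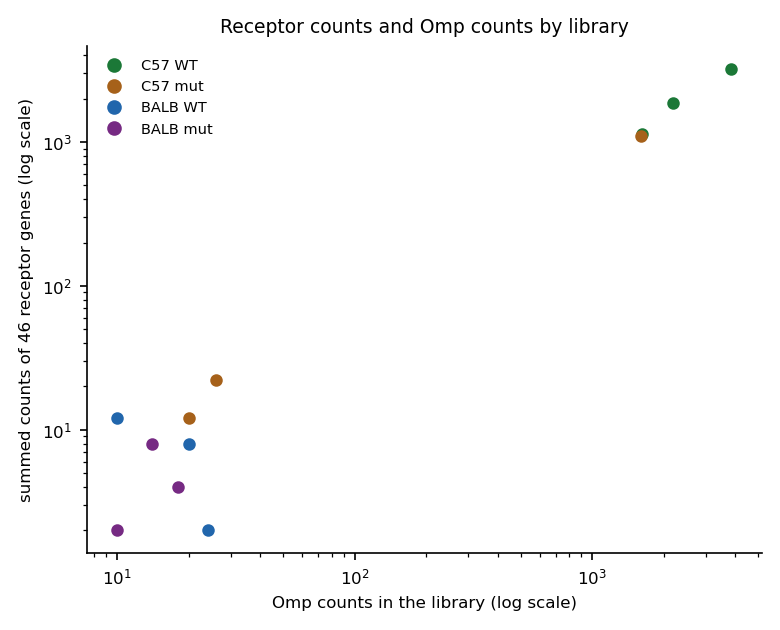
Summed counts of 46 receptor genes (the 47 not found in all libraries, without Olfr1033; vertical axis, log scale) against Omp counts (horizontal axis, log scale), 1 point per library coloured by group. The 3 C57BL/6 wild type libraries and mutant replicate 4 lie at 1598 to 3848 Omp counts, where wild type replicate 2 and mutant replicate 4 nearly coincide, and the other 8 lie at 26 or fewer.

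Olfr1033 (chromosome 2, 86020640 to 86044808) did not follow Omp. It had 230, 176 and 164 counts in C57BL/6 wild type and 230, 172 and 198 in C57BL/6 mutant libraries, so mutant replicates 5 and 6 were as high as the rest. In BALB/c it had 2 counts in mutant replicate 16 and 0 in the other 5 libraries. On C57BL/6 it averaged 5.22 CPM ± 0.792 (SD, n = 3) for wild types against 4.90 CPM ± 0.635 (SD, n = 3) for mutants, a difference of log2 -0.09 (SE 0.338, adjusted p 0.869, edgeR) that was within the spread.

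Between strains Olfr1033 differed without overlap. In wild type mice the BALB/c level was lower by 53.5-fold against the floor of 3 counts per library, which is not a lower bound (adjusted p 8.44e-06, edgeR). It was lower in BALB/c mutants too (log2 -7.92, SE 0.578, adjusted p 8.42e-06, edgeR). Both calls were kept in 17 of 17 alternative analyses. Olfr1033 could enter the set and pass the filter on low counts only through the C57BL/6 libraries, so these calls are a description. The receptor rows on either side, Olfr1031, Olfr1032, Olfr1034 and Olfr1036, had 0, 0, 4 and 4 counts over the 6 C57BL/6 libraries and 0 in BALB/c. Olfr543 (chromosome 7, 102476773 to 102477902) was also found mainly in C57BL/6, with 12, 10 and 18 counts in C57BL/6 wild type, 12, 4 and 10 in C57BL/6 mutant, and 4 in BALB/c wild type replicate 13 with 0 in the other 5 BALB/c libraries. Its strain call in wild type was lost in 7 of 17 alternatives, and its strain call in mutants was kept in all 17. Olfr543 too could enter the set only through the C57BL/6 libraries, so its calls are likewise a description.

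Tests were fitted on all genes, and 44 of the 54 members passed the filter on low counts. The 10 that did not pass (Olfr1347, Olfr314, Olfr1281, Olfr1183, Olfr742, Olfr1322, Olfr1193, Olfr513, Olfr455 and Olfr292) had at most 20 to 38 counts in their highest library. Many members could enter the set and pass the filter only through the C57BL/6 libraries. Their strain calls, and counts of called members, are therefore a description and support nothing about the family.

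In C57BL/6, mutants were compared with wild types to ask how the mutation changed expression on that background. The call was made for 2 of 44 members, both lower in mutants, where 23.9% of all 16190 genes tested were called and 12.6% were called lower. They were Olfr1372-ps1 and Olfr224 (chromosome 11, 58566399 to 58567343), which had 28, 18 and 14 counts in wild type and 6, 0 and 0 in mutant libraries (log2 -3.43, SE 1.04, adjusted p 0.0484, edgeR). The median log2 difference over the 44 was -2.52 and over all genes -0.004. Olfr536 (log2 -2.36, SE 1.37, adjusted p 0.243, edgeR) and Olfr1507 (log2 -3.18, SE 1.38, adjusted p 0.129, edgeR) did not pass, with mutant replicate 4 at 5.196 and 2.80 CPM and replicates 5 and 6 near or at 0. Without mutant replicate 4, 42 members were called, all lower in mutants, where 29.3% of 16500 genes were called. Without wild type replicate 1, 0 members were called, where 13.3% of all genes were, and without mutant replicate 6, 0 members, where 10.5% of all genes were. The other fits that left out 1 library called 1 or 2, where 13.8% to 22.3% of all genes were called. The Olfr224 call was lost in 14 of 17 alternatives, and total-count scaling called 7 members, all lower, where it called 28.9% of 16190 genes.

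In BALB/c, where most members were at 0, 0 of 44 members were called between mutant and wild type by edgeR, against 0.136% of all genes (0.0926% higher and 0.0432% lower). DESeq2, which gave an adjusted p for 25 members, also called 0, where it called 1.55% of all genes, and 1 member, Olfr856-ps1, had an unadjusted edgeR p under 0.05 (log2 -0.21, SE 0.0932, p 0.0417, adjusted p 0.402). The interaction, which asks whether the genotype effect differed between strains, also called 0 of 44 by edgeR, against 10% of all genes (5.46% higher and 4.58% lower), and 0 of the 34 with an adjusted p by DESeq2, against 13.2% of all genes, with 1 member, Olfr1372-ps1, at an unadjusted p under 0.05 (adjusted p 0.124, edgeR). Without C57BL/6 mutant replicate 4 the interaction called 2 members, Olfr1372-ps1 and Olfr15, where 19.0% of 16500 genes were called. The 39 of 54 members at 0 in all BALB/c libraries could be called in neither contrast, so the 0 of 44 says nothing about them. Their interaction could not be estimated, with an SE of 20303.0 for Olfr1507 (edgeR).

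Between strains in wild type, 41 of 44 members were called, against 48.5% of all genes. Of these 39 were lower in BALB/c, where 25.6% of all genes were called lower, and Olfr856-ps1 and Olfr920 were higher. Of the 39, 31 had no count in any BALB/c wild type library, and their lower bounds ran from 4.83-fold to 93.6-fold. The members that did not pass were Olfr558, Olfr56 and Olfr78. DESeq2, with 54 members tested, called 26, of which 17 were among the 41, where it called 38.4% of 20322 genes. The comparison rests on C57BL/6 libraries that all held the Omp counts given above and on BALB/c libraries that held few.

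Among mutants, 6 of 44 members were called between strains, against 36.9% of all genes (18% higher and 18.9% lower in BALB/c). Olfr856-ps1 was higher in BALB/c, and Olfr613, Olfr1033, Olfr1372-ps1, Olfr536 and Olfr543 were lower. Olfr536 was called (adjusted p 0.0455, edgeR) although the ranges overlapped at 0, since C57BL/6 mutant replicate 5 had no count. The Olfr536 call was lost in 6 of 17 alternatives, among them the fit without replicate 4 (log2 -3.996, adjusted p 0.213, edgeR). Without C57BL/6 mutant replicate 5, 16 members were called, where 32.3% of 16508 genes were.

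With receptor rows joined when less than 1000 kb apart, the 1123 rows formed 49 clusters, and 22 of these held a member. Of the 49 clusters, 9 held a single row, and over all rows the share of members was 4.81%. The largest, on chromosome 2 (85330967 to 90401674), held 224 rows and 10 members, or 4.46%. A cluster on chromosome 14 (49894258 to 52495695) held 36 rows and 8 members, or 22.2%, among them Olfr1507 with its neighbours Olfr1508 and Olfr1509, which are known to share an enhancer called the H element. A cluster on chromosome 15 (98186013 to 98498406) held 10 rows and 4 members, Olfr281, Olfr286, Olfr287 and Olfr288. The class I cluster on chromosome 7 (102476773 to 105369317) held 124 rows and 4 members, Olfr543, Olfr558, Olfr613 and Olfr78. Of these 4, Olfr558, Olfr613 and Olfr78 were among the 7 genes found in all libraries, and Olfr543 was found in 7 libraries.

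Promoter windows of 250 bases before to 50 bases after the annotated start were taken from RefSeq for GRCm38.p6, where 42 of the 54 members had an entry. In 21 of the 42 the annotated start was an ATG, so that the gene model begins at its coding sequence and the window need not hold the promoter. Windows are shown for Olfr536, the highest of the genes that went with Omp, and for Olfr558, which was level across groups. They lie at chr7:140507269-140507568 (minus strand) and chr7:102702073-102702372 (plus strand).
Olfr536: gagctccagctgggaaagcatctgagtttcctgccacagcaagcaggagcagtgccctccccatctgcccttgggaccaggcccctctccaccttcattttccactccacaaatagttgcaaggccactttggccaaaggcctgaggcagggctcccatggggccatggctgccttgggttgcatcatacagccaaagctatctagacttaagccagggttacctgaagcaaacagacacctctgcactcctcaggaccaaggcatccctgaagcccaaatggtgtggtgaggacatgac
Olfr558: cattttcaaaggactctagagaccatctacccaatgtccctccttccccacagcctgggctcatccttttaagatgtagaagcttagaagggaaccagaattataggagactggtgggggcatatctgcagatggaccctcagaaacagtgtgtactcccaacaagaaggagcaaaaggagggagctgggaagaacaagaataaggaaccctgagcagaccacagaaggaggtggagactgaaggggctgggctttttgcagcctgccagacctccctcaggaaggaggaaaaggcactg

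The 3 motifs below were searched on both strands. TCCC and GGGA parted by any 2 bases, the core bound by the early B-cell factors that act in olfactory neurons, was in 0 of 42 member windows, in 0.538% of Olfr windows and in 0.904% of all 32851 RefSeq windows. TAATTA, the core of many homeodomain sites including those of Lhx2 and Emx2, was in 5 of 42 windows, or 11.9%, against 18.6% of Olfr windows and 5.29% of all windows. TATAAA, the letters of the TATA box, was found at any position in 14 of 42, or 33.3%, against 40.9% of Olfr windows and 13.6% of all windows. In the 21 member windows whose start is not a start codon, TATAAA was in 3 (14.3%, against 33.9% of such Olfr windows) and the homeodomain core in 2 (9.52%, against 18.5%). Those TATAAA matches lay at -128 in Olfr613, -114 in Olfr56 and -161 in Olfr742, counted in bases from the annotated start. These matches describe the letters of the windows and do not show binding.

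Other genes of olfactory neurons were taken from lists set with earlier results of these data known. Of 17 tested genes for signal transduction and maturity, 17 were lower in BALB/c than in C57BL/6 wild type, where 25.6% of all genes tested were called lower. In C57BL/6 mutants 6 were lower than in wild type, against 12.6% of all genes, and 1, Adcy3, was higher, against 11.3% (log2 0.51, SE 0.0691, adjusted p 8.08e-04, edgeR). Rtp1, whose product carries receptors to the cell surface, had 1522, 690 and 850 counts in C57BL/6 wild type, 610, 0 and 2 in C57BL/6 mutant libraries and 0 in all BALB/c libraries. Cnga2 had 808, 378 and 456 counts in C57BL/6 wild type, 296, 10 and 2 in C57BL/6 mutant and 0 to 10 in BALB/c libraries. Both genes thus had the same 4 high libraries as the sum of the 46 receptors, and neither passed the test between C57BL/6 mutants and wild type (edgeR adjusted p 0.225 for Rtp1 and 0.0818 for Cnga2).

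Of 11 regulators of receptor choice and neuron identity, 7 were lower in BALB/c wild type than in C57BL/6 wild type, against 25.6% of all genes. In C57BL/6 mutants 7 were lower than in wild type, against 12.6% of all genes. Lhx2, a homeodomain factor needed for receptor expression, had 2244, 824 and 1138 counts in C57BL/6 wild type, 770, 12 and 16 in C57BL/6 mutant and 2 to 8 in BALB/c libraries, and did not pass the test between C57BL/6 mutants and wild type (log2 -2.64, SE 1.01, adjusted p 0.0761, edgeR). Of 8 genes of progenitors and immature neurons, 8 were lower in BALB/c wild type and 4 were lower in C57BL/6 mutants, against the same 25.6% and 12.6% of all genes. Neurod1, of immature neurons, had 642, 252 and 342 counts in C57BL/6 wild type, 172, 0 and 2 in C57BL/6 mutant and 0 to 2 in BALB/c libraries, and did not pass the test between C57BL/6 mutants and wild type (log2 -3.06, SE 1.23, adjusted p 0.0948, edgeR).

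Of the markers of other cells of the olfactory and nasal lining, the summed levels of those of sustentacular cells and of ciliated cells had the same 4 high libraries. The 7 markers of sustentacular cells and Bowman glands summed to 645.1, 328.0 and 374.7 CPM in C57BL/6 wild type and 212.7 CPM in mutant replicate 4. In mutant replicates 5 and 6 they summed to 2.57 and 3.99 CPM, and in BALB/c to 3.46 to 5.62 CPM. Of the 7, 7 were called lower in BALB/c wild type than in C57BL/6 wild type, against 25.6% of all genes. Respiratory ciliated markers, 4 of 6 in the table, summed to 12.9 to 26.5 CPM in C57BL/6 wild type, 8.404 CPM in mutant replicate 4, 3.49 and 3.83 CPM in mutant replicates 5 and 6 and 4.39 to 5.88 CPM in BALB/c. Of the 4, Rsph1 did not have this split, with 0.768 CPM in mutant replicate 4 against 1.139, 1.076 and 1.378 CPM in BALB/c mutants, where it was higher than in C57BL/6 mutants (log2 1.77, SE 0.575, adjusted p 0.0302, edgeR). Basal epithelial markers (Krt5, Krt14, Krt15 and Trp63) also summed to more in those 4, but with 1 library far above the rest: 18.3, 197.3 and 8.20 CPM in C57BL/6 wild type and 4.65 CPM in mutant replicate 4, against 0.0492 to 0.560 CPM elsewhere. Krt15 alone did not have the split. It had 0.107 CPM in C57BL/6 wild type replicate 3 and 0.0904 CPM in mutant replicate 4, against 0.301 CPM in BALB/c mutant replicate 17. Schwann and ensheathing glia markers did not split this way, with 61.9 to 100.2 CPM in C57BL/6 wild type, 48.1, 32.9 and 70.1 CPM in mutant replicates 4, 5 and 6, and 37.4 to 430.3 CPM in BALB/c. The part of these cells in the receptor differences between groups was not tested. Olfr613, Olfr856-ps1, Olfr558, Olfr920, Olfr56, Olfr78, Olfr1033 and Olfr212 did not have the split into 4 high and 8 low libraries in CPM. Olfr212 had 44, 10 and 14 counts in C57BL/6 wild type and 4, 8 and 4 in C57BL/6 mutant libraries. Olfr543 had it only narrowly, with 0.271 CPM in mutant replicate 4 and 0.269 CPM in mutant replicate 6.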

How the data were processed

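RNA sequencing of 12 libraries from newborn frontal bone was used. The submitters' processing notes name bcl2fastq, TopHat2 2.0.6, HTSeq, DESeq2 and mm10, with no role or order; the annotation and the strand setting are not given in the sources used here. The authors deposited raw counts per gene, 27181658 to 46521546 per library, and RPKM values, which per the file headers use a coding length for each gene. RPKM served only to compare levels between genes.

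Counts of all genes were tested with edgeR 4.0.16 in R 4.3.3 (filterByExpr with minimum count 10 and minimum total 15, TMM, 1 quasi-likelihood model with 4 groups), which left 16190 genes. P-values were adjusted by Benjamini-Hochberg over all genes and called under 0.05. CPM uses TMM-scaled totals, and folds against groups with no count use a floor of 3 counts per library, which is less than 3 read pairs. The fit was tested on simulated data.

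The members, gene lists and tests were chosen with earlier results of these data known. Named members were the highest by summed counts, the called ones with the largest differences in each direction, the highest in BALB/c, those at the limit of 50 and those with the largest shares in single C57BL/6 mutant libraries. Olfr15, Olfr212, Olfr78, Olfr281, Olfr286, Olfr287, Olfr288, Olfr329-ps, Olfr1508, Olfr1509 and the members that failed the filter were named after their values were seen. Exact permutation tests of the summed level and of the number detected had been planned and are not given, since such a p would score the chosen members. DESeq2 1.42.0, RLE factors, total counts, other filters and leaving out each library were the alternatives. The authors' own table of comparisons was not used.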

Additional observations from a re-analysis of the deposited data

How the results depend on the processing

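No paired analysis was possible because replicate numbers are not shared between groups. The number of members called is given with the share of all genes called in the same fit. In C57BL/6 mutants against wild type it was 2 (23.9%), and it was 7 with total counts (28.9%), 1 among genes with at least 50 counts (22.9%), 1 with no filter (17.6%) and 0 to 42 with 1 library left out (10.5% to 29.3%). Between strains in wild type it was 41 (48.5%), and it was 26 with DESeq2 (38.4%) and 34 to 49 with 1 library left out (39.7% to 49.0%). Between strains in mutants it was 6 (36.9%), and 4 to 16 with 1 library left out (27.3% to 38.7%). The interaction called 0 members (10%), and 0 to 2 with 1 library left out (3.78% to 19.0%), and it could not call members at 0 in all BALB/c libraries. The summed level rose to 127.8 CPM in C57BL/6 wild type and to 31.9 CPM in BALB/c wild type when all Olfr rows were summed. The mean number of receptors with at least 10 counts in C57BL/6 wild type, 49.3, was 78 over all rows, 15 with a sum of at least 200 and 54 with at least 2 counts. In C57BL/6 mutants it was 21, with 13.95 at equal depth, 9.67 with a sum of at least 200 and 8 to 28 when 1 library was left out, 8 being without replicate 4. In BALB/c wild type, 5.67, it was 9.67 with at least 2 counts. In BALB/c mutants, 6.33, it was 5.67 with a sum of at least 200, 5.63 at equal depth and 8.67 with at least 2 counts. Of the 19 called differences that were refitted, on 11 members, none changed direction under the 17 alternatives. With 36 members at 0 in C57BL/6 mutant replicates 5 and 6 and in all BALB/c libraries, differences among those libraries were not detectable for them at this depth.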

Other observations

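None of the 15 rows of trace amine-associated receptors reached 50 counts, and the highest, Taar6 and Taar7b, had 6 counts each over all libraries, all of them in C57BL/6. Of 333 rows of vomeronasal receptors (names beginning with Vmn1r or Vmn2r), 5 reached a sum of 50 counts. Together the 333 rows had 684, 490 and 606 counts in C57BL/6 wild type, 632, 538 and 506 in C57BL/6 mutant, 50, 62 and 70 in BALB/c wild type and 76, 76 and 90 in BALB/c mutant libraries. Vmn1r58 had the highest sum of these rows, with 464, 318 and 408 counts in C57BL/6 wild type, 468, 384 and 368 in C57BL/6 mutant, 40, 46 and 36 in BALB/c wild type and 36, 44 and 76 in BALB/c mutant libraries. Like Olfr1033, and unlike Omp, its counts in C57BL/6 mutant replicates 5 and 6 lay within the range of the other C57BL/6 libraries. These values carry no test.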
